A study of Mus musculus with 24 samples.

Results

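Alveolar macrophages, the phagocytes that line the air spaces of the lung, were washed from the airways of mice on postnatal day 7 and kept for 4 h with or without lipopolysaccharide (LPS), the outer-membrane glycolipid of Gram-negative bacteria. The response described here is the difference between the LPS libraries of that age and its controls, so its members are 4 of the 24 RNA-seq libraries of the series, 2 with LPS and 2 without, chosen by their labels. LPS of Escherichia coli 055:B5 was given at 400 ng/mL, and control cells stood in LPS-free medium for the same time. The labels name DMEM in one place and IMDM in another as the medium, and both arms share it. Each library pooled lavage cells from 3 to 6 mice, and strain and sex are not stated. Nothing in the labels says that the pools of 1 group were separate, so the p-values speak only of how these libraries vary, and that variation may be technical. The other 20 libraries come from the same treatment at postnatal days 1, 3, 21 and 49 (D1, D3, D21 and D49) and serve here as the comparison for day 7 (D7).

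LPS is recognised on macrophages by a complex of Tlr4, Ly96 (MD-2) and Cd14. On the cell surface this complex signals through Myd88 to NF-kappa-B and AP-1, which switch on cytokine and chemokine genes. From endosomes it signals through Ticam1 (TRIF) to the interferon regulatory factors, and the interferon-beta then made acts back on the cell through Stat2 and Irf9 to switch on antiviral genes. Alveolar macrophages take their form in the first week after birth under Csf2 (GM-CSF), Tgfb1 and the nuclear receptor Pparg.

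Total counts of the D7 libraries, in units of 1e6, were 16.7 and 17.2 in control and 18.2 and 20.5 with LPS, within the range of 15.8 to 23.3 over the series. The Spearman correlation across genes was 0.991 between the controls and 0.989 between the LPS libraries, and neither pair differed by so little that it could be 1 library deposited again. A GC deviation, which measures how far GC-rich transcripts stand apart from GC-poor ones in a library, lay between -0.56 and 0.39 (log2) at D7. It was beyond 1 in absolute value in 10 of the 24 libraries, all of other ages. Markers fit the labelled cell type: the macrophage genes Chil3 (1541 and 1566 CPM, counts scaled to a common library size, in control; 1576 and 1409 with LPS), Mrc1 (1338 and 1357; 1381 and 1249) and Ear2 (767 and 725; 756 and 734) were high in all 4 libraries. Siglecf, the usual surface marker of these cells, stood at 94.5 and 78.7 CPM in control and 66.5 and 62.8 with LPS. The neutrophil marker Ly6g had no count, and summed T and NK cell markers reached at most 2.94 CPM. Liver and salivary or lacrimal gland transcripts did differ between the arms, and their values are given with the results they touch.

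Of 11774 genes tested, 606 rose (5.15%) and 526 fell (4.47%) with LPS at an adjusted p under 0.05 (edgeR quasi-likelihood test), 9.61% in all. The rises were larger: their median was 2.33 on the log2 scale, against -1.61 for the falls, and 135 genes rose over 16-fold while 15 fell by as much. Over all tested genes the median difference was 0.02. The 2 groups did not overlap in 63.5% of tested genes, so a lack of overlap alone says little here. Without control library 1 or 2 the count of 1132 changed genes was 609 or 603, and without LPS library 1 or 2 it was 629 or 620. In these bulk samples, fewer cells of a kind and less RNA per cell cannot be told apart.

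**Figure D1:**
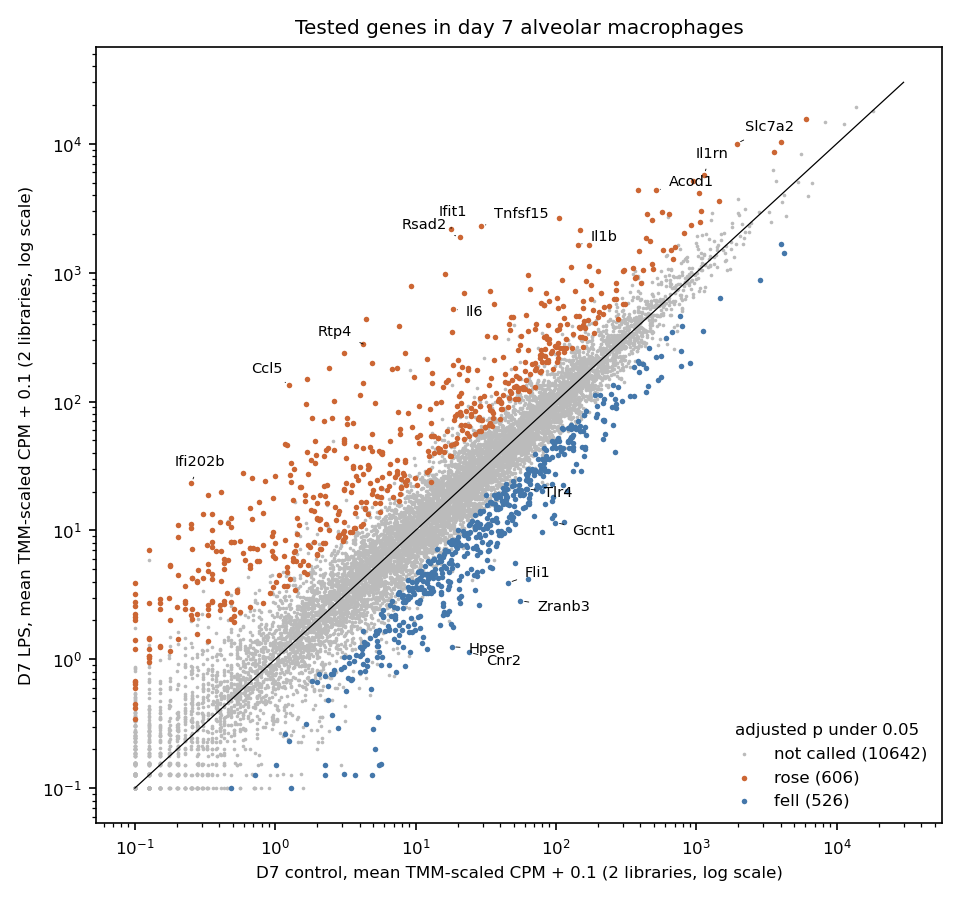
Mean TMM-scaled CPM (plus 0.1) of each tested gene in D7 control (x axis, log scale) and D7 LPS libraries (y axis, log scale), 2 libraries each; the line marks equal levels. The 606 genes that rose lie above the line, led by interferon and cytokine genes, and the 526 that fell lie below it.

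The genes that rose most were interferon-induced antiviral genes and a few cytokines. Ifit1, which binds viral RNA, stood at 18.0 and 17.6 CPM in control and at 2319 and 2081 with LPS (log2 fold change 6.95 ± 0.45, SE; adjusted p = 1.4e-08). Rsad2 (viperin, which makes a chain-terminating nucleotide) went from 20 and 21 CPM to 2000 and 1770 (6.52 ± 0.44). Tnfsf15, a TNF-family cytokine, went from 28.3 and 30.5 to 2449 and 2139 CPM (6.29 ± 0.49). Both LPS libraries lay far above both controls in all 3. The chemokine Ccl5, the antiviral genes Oasl1, Oasl2, Ifit2, Mx2, Cmpk2 and Rtp4, the p200 gene Ifi202b, Trim30c and U90926 were also among the 15 largest rises, which ran from 6.07 to 7.19 on the log2 scale. Mir7678, a microRNA gene inside that range, had 1 of its control libraries at 0 and the other at 0.0516 CPM; whether its counts belong to an overlapping transcript was not tested.

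Among the 15 largest falls, between -5.48 and -2.92 on the log2 scale, stood genes of signalling, adhesion and glycan synthesis. Cnr2, the cannabinoid receptor of immune cells, fell from 24.4 and 23.9 CPM to 0.686 and 1.37 (-4.53 ± 0.50; adjusted p = 5.6e-06). Fli1, an ETS-family transcription factor, fell from 47.4 and 43.7 CPM to 4.18 and 3.46. Zranb3, a DNA-annealing helicase, went from 53.7 and 58 CPM to 2.63 and 2.85. These libraries did not overlap in any of the 3. Hpse (heparanase), Arhgap19, Rasa3, Gcnt1 and St6gal1 (both glycosyltransferases), Cd300a, Cdc25b and Kcnj2 fell as well. The liver genes Apcs, Fgb and Fgg are among these 15, and liver transcripts are taken up at the end. Apcs, the largest fall, was near the detection limit with LPS (0 and 0.203 CPM), so its size is uncertain. The Fgg call (-3.33) ended without any 1 of the 4 D7 libraries, where its log2 difference was between -3.82 and -2.96.

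Promoters of the rising groups differed in the short motifs they hold. A window of 300 bases, 250 before to 50 after the start, was found in RefSeq (GRCm38.p6) for 7993 tested genes. The core of the interferon-stimulated response element was searched as GAAA, any 2 bases and GAAA again, and the kappa-B motif as GGG, any 3 bases and TTCC, on both strands, with overlapping matches counted. The interferon core occurs in 3.99% of all 27025 genes with a window, and it was in 62 of 418 genes that rose (14.8%), 12 of 415 that fell (2.89%) and 3.37% of those not called. It was in 16 of 31 interferon-stimulated effectors that rose, in all 8 guanylate-binding and immunity-related GTPase genes that rose with a window, in 8 of 10 p200 genes, in 1 of 8 chemokines and in 0 of 11 cytokines. The kappa-B motif, in 6.31% of all genes with a window, was in 5 of the 8 chemokines and 2 of the 11 cytokines that rose. Over the tested genes with a window it was in 39 of 418 that rose (9.33%), 5.3% of those that fell and 7.32% of those not called. A match is a description of letters and not evidence of binding.

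The following windows are shown because they carry the motifs of the groups described, and capitals mark the matches. Ifit3b (chr19:34607707-34608006, plus strand) and Isg15 (chr4:156200769-156201068, minus strand) hold the interferon core alone, Gbp5 (chr3:142496684-142496983, plus strand) and Cxcl10 (chr5:92348840-92349139, minus strand) hold both, and Cxcl1 (chr5:90890995-90891294, plus strand) holds only kappa-B; the 3 matches in Isg15 overlap, as do 2 of those in Cxcl1.
Ifit3b: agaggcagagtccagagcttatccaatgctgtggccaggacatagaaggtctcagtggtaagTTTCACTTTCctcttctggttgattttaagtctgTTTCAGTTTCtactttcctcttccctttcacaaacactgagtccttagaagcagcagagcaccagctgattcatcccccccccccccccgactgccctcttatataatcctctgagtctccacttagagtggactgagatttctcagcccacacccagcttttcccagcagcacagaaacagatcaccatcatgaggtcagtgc
Isg15: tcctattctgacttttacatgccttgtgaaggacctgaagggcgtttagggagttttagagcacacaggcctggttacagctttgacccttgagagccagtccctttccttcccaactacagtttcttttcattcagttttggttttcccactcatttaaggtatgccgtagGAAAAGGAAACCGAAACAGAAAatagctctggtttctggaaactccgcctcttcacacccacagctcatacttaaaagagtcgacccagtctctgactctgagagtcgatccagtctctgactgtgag
Gbp5: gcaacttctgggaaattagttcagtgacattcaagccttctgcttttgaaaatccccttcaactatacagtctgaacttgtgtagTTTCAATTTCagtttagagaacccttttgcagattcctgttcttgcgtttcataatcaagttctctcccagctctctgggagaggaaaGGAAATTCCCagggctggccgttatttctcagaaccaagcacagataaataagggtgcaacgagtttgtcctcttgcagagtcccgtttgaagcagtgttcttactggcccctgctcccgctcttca
Cxcl10: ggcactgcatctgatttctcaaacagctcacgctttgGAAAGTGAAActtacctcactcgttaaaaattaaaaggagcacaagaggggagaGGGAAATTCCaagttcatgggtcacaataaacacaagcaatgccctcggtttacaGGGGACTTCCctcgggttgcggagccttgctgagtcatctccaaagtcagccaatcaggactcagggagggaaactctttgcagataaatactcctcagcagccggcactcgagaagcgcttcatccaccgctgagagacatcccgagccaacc
Cxcl1: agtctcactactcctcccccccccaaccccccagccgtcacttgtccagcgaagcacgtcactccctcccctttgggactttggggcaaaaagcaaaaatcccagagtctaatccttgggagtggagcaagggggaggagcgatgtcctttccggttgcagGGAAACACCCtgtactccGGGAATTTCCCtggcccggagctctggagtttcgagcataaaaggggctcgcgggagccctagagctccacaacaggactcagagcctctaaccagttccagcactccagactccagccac

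The sensing machinery moved in parts. Of 19 tested genes of the LPS receptor complex and its adaptors, 4 rose and 1 fell, with a median log2 difference of 0.27. The shares over all tested genes were 5.15% and 4.47%. Cd14, which hands LPS to the receptor, went from 51.9 and 61.3 to 289 and 358 CPM (2.51 ± 0.50; adjusted p = 0.0024). Peli1, a ubiquitin ligase of the pathway, went from 176 and 167 to 1193 and 1063 CPM (2.72 ± 0.34). The receptor Tlr4 itself went the other way, from 60 and 64.2 to 22.8 and 19 CPM (-1.57 ± 0.37; adjusted p = 0.0087), while its partner Ly96 was at 21.4 and 20.3 CPM in control and 23.3 and 20.2 with LPS. The Tlr4 call ended without control library 2 (adjusted p = 0.057), LPS library 1 (0.054) or LPS library 2 (0.12). Without 1 library the list had 2 rises in each case.

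Of 24 other pattern recognition receptors tested, 9 rose and 3 fell. The RNA helicases Ifih1 (MDA5; 102 and 108 to 2823 and 2523 CPM; 4.67 ± 0.40) and Ddx58 (RIG-I; 27.4 and 27 to 182 and 168; 2.68 ± 0.29) and the nucleic acid sensor Zbp1 (1.5 and 1.88 to 34.9 and 35.7) rose together. Tlr2, the receptor for bacterial lipoproteins, rose from 1524 and 1399 to 3593 and 3539 CPM. Clec4n (Dectin-2), a receptor for fungal mannans, fell from 2684 and 3010 to 895 and 869 CPM (-1.69 ± 0.30). Tlr8, an endosomal RNA sensor, fell from 55.6 and 60.7 to 16 and 13.7 CPM (-1.97 ± 0.44), and Clec7a (Dectin-1), a receptor for fungal glucans, from 4097 and 4383 to 1483 and 1341. The Tlr8 call ended without either LPS library, and the Clec7a call without control library 2 or either LPS library. Leaving out 1 library lowered the 9 rises to between 5 and 8 and the 3 falls to between 1 and 3.

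Transcription factors of the immediate wave were called in both directions after 4 h. Of 15 tested NF-kappa-B subunits and inhibitors 2 rose, Nfkb1 (300 and 239 to 758 and 710 CPM; 1.45 ± 0.32) and Nfkbiz (106 and 93 to 290 and 235 CPM; 1.40 ± 0.35), against a median of 0.97 for the list. Nfkb1 was not called without control library 2 (adjusted p = 0.091), and Nfkbiz ended as a call without LPS library 1 or either control. In the 14 libraries with a GC deviation within 1, which keep all 4 from D7, 9 of the 15 rose. Nr4a3, an orphan nuclear receptor induced early by many stimuli, went from 20.7 and 19.1 to 224 and 195 CPM (3.39 ± 0.35). Egr2, a zinc-finger factor, fell from 63.1 and 58.5 to 22.4 and 19.2 CPM (-1.55 ± 0.27). Of 22 AP-1, EGR and other early factors 2 rose (Nr4a3 and Egr1) and 4 fell (Egr2, Fos, Jun and Klf4), and 1 or 2 rose and 1 or 2 fell without 1 of the libraries. Of the 15 interferon regulatory factors and STATs 6 rose and none fell: Irf4, Irf7, Irf9, Stat2, Stat5a and Batf, the last of which was not called without control library 1 (adjusted p = 0.08) or 2 (0.14). Irf7, the factor that amplifies interferon production, went from 1.24 and 1.17 to 24.6 and 22.8 CPM (4.29 ± 0.36; adjusted p = 2.3e-07).

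**Figure D2:**
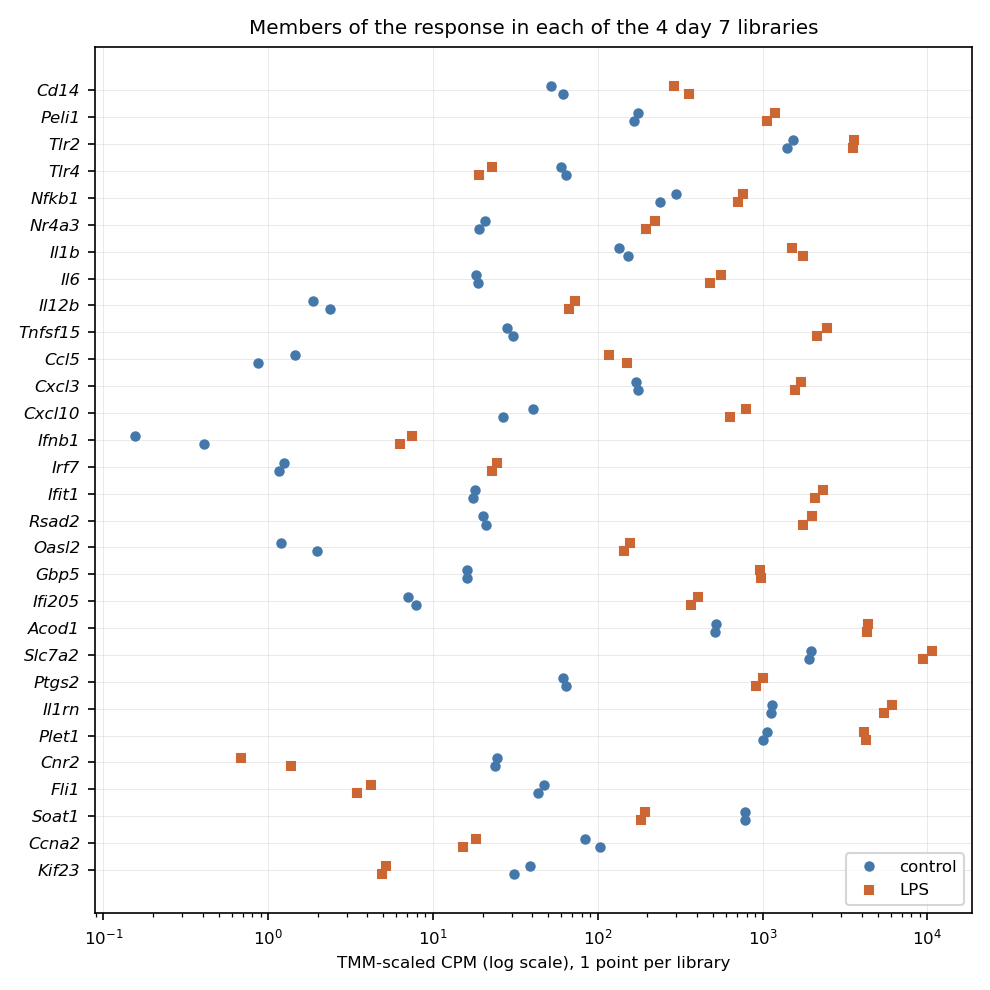
TMM-scaled CPM (x axis, log scale) of 30 members in each D7 library, control as circles and LPS as squares. In every gene shown the 2 control points and the 2 LPS points do not overlap; Tlr4, Cnr2, Fli1, Soat1, Ccna2 and Kif23 lie lower with LPS.

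Secreted mediators rose as a group. Of 30 tested cytokines 15 rose and none fell, with a median log2 difference of 2.39, and of 18 chemokines 13 rose and none fell, with a median of 2.60. Il6 went from 18.3 and 18.8 to 556 and 482 CPM (4.81 ± 0.40; adjusted p = 2.5e-07). Il12b, the p40 chain shared by IL-12 and IL-23, went from 1.86 and 2.38 to 72.9 and 67.3 CPM (5.04 ± 0.52). Inhba, which encodes the activin A subunit, went from 394 and 377 to 4778 and 3930 CPM (3.50 ± 0.41). Per unit of length, Il1a (335 to 1448 FPKM, a level scaled by gene length) and Il1b (86.7 to 824) were the cytokines with the highest mean levels after LPS among the 15, followed by Inhba (656). All of these LPS libraries lay above the controls. Il33 (0.31 and 0.304 to 14.3 and 8.65 CPM), an alarmin of epithelia, and Ifnb1 (0.155 and 0.406 to 7.44 and 6.31 CPM; 4.58 ± 0.84), the interferon of the TRIF arm, stayed low in level. Il10, the anti-inflammatory cytokine, was low in control (0.568 and 0.558 CPM) and reached 8.41 and 5.95 CPM. The detection floor of 3 counts was 0.155 and 0.152 CPM in the D7 controls. Ifnb1 stood at that floor in control library 1, so the size of its rise is uncertain. Tnf was at 535 and 719 CPM in control and at 1993 and 3385 with LPS (2.10 ± 0.80), which did not pass (adjusted p = 0.13) although the groups did not overlap; within the 14 libraries its adjusted p was 0.0023.

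Chemokines for neutrophils and for T cells both rose. Cxcl3, a neutrophil attractant, went from 170 and 176 to 1705 and 1567 CPM (3.24 ± 0.38), and Cxcl1 from 46.4 and 49.6 to 488 and 419. Cxcl10, an attractant of T cells that interferon also induces, went from 40.3 and 26.8 to 799 and 639 CPM (4.42 ± 0.47; adjusted p = 3.6e-06). Ccl22, which attracts regulatory T cells, went from 22.7 and 19.9 to 197 and 170 CPM (3.11 ± 0.35). Ccl2, the monocyte attractant, reached only 4.46 and 4.37 CPM. Without 1 library 9 to 12 chemokines and 13 or 14 cytokines passed.

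Interferon-stimulated genes rose almost as a whole. Of 48 tested effectors 39 rose and none fell, and the list's median log2 difference was 3.43, against 0.02 over all tested genes. With 1 library left out 32 to 36 rose, and 43 rose and 2 fell within the 14 libraries. Ifit2 (9.3 and 8.93 to 848 and 739 CPM) and Ifit3 (1.6 and 1.52 to 89.1 and 101 CPM), partners of Ifit1, and Ifit3b, a near copy of Ifit3 whose reads may be split between them, rose by 5.92 to 6.44 on the log2 scale. Oasl2, of the oligoadenylate synthetase family, went from 1.19 and 1.98 to 157 and 144 CPM (6.56 ± 0.42), and Usp18, which removes ISG15 from proteins and restrains interferon signalling, from 0.465 and 1.01 to 25.2 and 23.2 CPM (5.02 ± 0.42). Isg15 was at 3.56 and 2.43 CPM in control and 202 and 276 with LPS (6.31 ± 1.50); its call ended without control library 1 (adjusted p = 0.1) or 2 (0.13). Of the 9 members not called, Samhd1, a nucleotide hydrolase that restricts viruses, was lower with LPS (199 and 177 against 126 and 107 CPM; -0.68 ± 0.26, adjusted p = 0.12).

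GTPases and DNA-binding proteins of the interferon programme followed. Of 12 guanylate-binding proteins and immunity-related GTPases, which attack the vacuoles of intracellular microbes, 11 rose and 1 fell, and of 12 p200 genes, whose products bind nucleic acids, 11 rose. Gbp5 went from 16.2 and 16 to 964 and 974 CPM (5.91 ± 0.36; adjusted p = 9.7e-09), Gbp7 from 6.4 and 7.1 to 197 and 158, and Ifi205 from 7.08 and 7.86 to 407 and 369 (5.70 ± 0.47). The exception was Iigp1, at 12.8 and 10.9 CPM in control and 0.686 and 1.53 with LPS (-3.41 ± 0.54; adjusted p = 0.00028). Both gene families contain close copies, so counts of single members are uncertain where reads fit several.

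**Figure D3:**
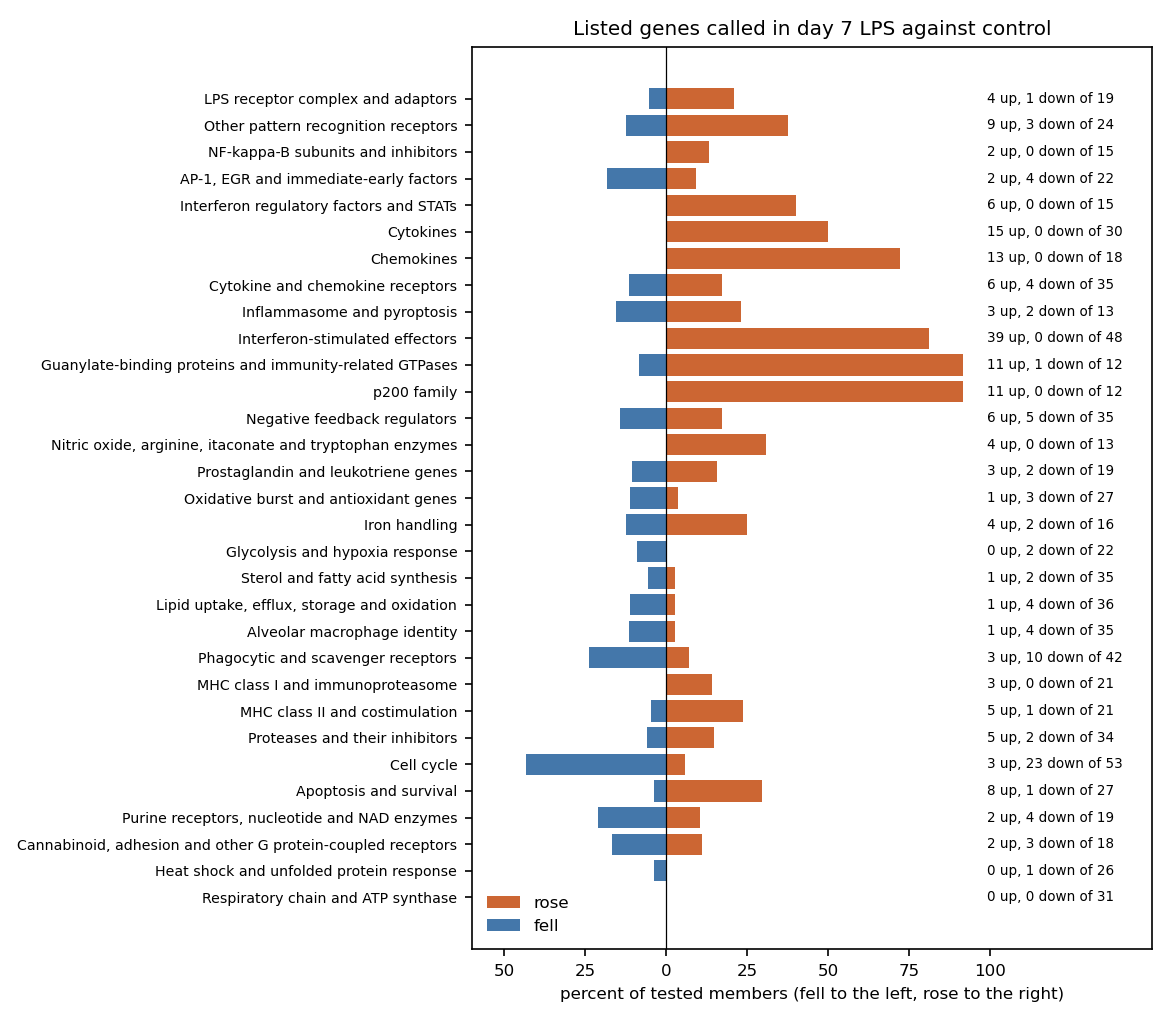
Percent of the tested members of each of 31 gene lists that rose (right) or fell (left) with LPS at D7, with the counts at the right. Interferon-stimulated effectors, the GTPases, the p200 family and the chemokines have the highest shares of rises, and the cell cycle list has the highest share of falls; over all tested genes 5.15% rose and 4.47% fell.

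Most genes called at D7 differed in the same direction at the other ages, which were measured in other libraries. Calls at every age came from the same fit, which estimated each gene's variation over all libraries, those of D7 included. A call at another age is therefore not independent of the D7 call. Of the 606 genes that rose at D7, 605 had a positive log2 difference at D1, 606 at D3, 596 at D21 and 586 at D49, where 43.5% to 50.6% of all tested genes did. They were called as rises in 344, 475, 525 and 447 cases, against 3.74%, 4.43%, 6.77% and 5.24% of all tested genes. Of the 526 falls, 183, 259, 413 and 359 were called as falls at these ages, against 1.93%, 2.57%, 6.74% and 4.98% of all tested genes. In both directions together 5.67%, 7.01%, 13.5% and 10.2% of tested genes were called at D1, D3, D21 and D49. At all 4 other ages 276 of the rises and 132 of the falls were called, and 22 rises and 51 falls were called at none of them.

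The D7 response differed from the mean of the other 4 responses in 33 genes (0.28% of 11774), 19 with a D7 value above that mean (0.161%) and 14 with one below it (0.119%). Of the 19, 16 belong to the interferon programme: Rtp4, Oasl2, Ifit2, Ifit3, Ifit3b, Cmpk2, Slfn5, Slfn8, Mx1, Mx2, Oas3, Rsad2, Usp18, Ifi47, Irf7 and Irf9. Rtp4, a chaperone that interferon induces, rose by 6.07 ± 0.34 at D7 and by 2.03 at D1, 4.33 at D3, 4.65 at D21 and 2.45 at D49, a difference of 2.71 ± 0.32 (adjusted p = 0.00055). For Ifit3 the difference was 2.51 ± 0.34 (adjusted p = 0.0016), and for Oasl2 2.69 ± 0.39 (0.0024). Rtp4 and Ifit3 remained called under each of the 18 alternatives, among them each left-out D7 library and each left-out age, while the Oasl2 call ended without control library 1 (2.37, adjusted p = 0.075). The number of positive calls fell to 7, 5, 10 and 11 without control 1, control 2, LPS 1 and LPS 2, and to 8 when D49 was left out of the other ages. In pairs of ages, 14 of the 48 effectors differed between D7 and D1, 18 between D7 and D49, 2 between D7 and D21 and 0 between D7 and D3, each with the larger response at D7. Over all tested genes these pairs differed in 0.629%, 0.365%, 0.102% and 0%. Between D7 and D3, edgeR found no gene at all past the threshold, with 171 at an unadjusted p under 0.05 and a median effector difference of 0.65.

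In these genes the D7 controls were low, and the D7 LPS levels lay within the range of the other ages. Rtp4 was at 4.03 and 4.26 CPM in the D7 controls, against 7.07 to 76.6 over the 11 controls of other ages, while its LPS level was 260 and 298 CPM, against 211 to 320 in the 9 LPS libraries of other ages. In Oasl2 the D7 controls were at 1.19 and 1.98 CPM, the others at 3.18 to 30.5, and the LPS libraries at 144 and 157 against 113 to 270. In 14 of the 16 genes both D7 controls were below all 11 other controls, and in none of the 16 were both D7 LPS libraries above all other LPS libraries. These 16 were chosen by a contrast that contains the same libraries, so that count describes them. Over the whole list of 48 effectors, 17 had the D7 controls lowest and 0 had the D7 LPS libraries highest, while over all tested genes 0.552% had the controls lowest and 1.94% the LPS libraries highest; with CPM by library total in place of TMM scaling, 12 of 48 and 0.348% had the controls lowest. The median control level of the 48 was 42.4 CPM at D1, 11.6 at D3, 4.03 at D7, 6.41 at D21 and 19.8 at D49, and the median LPS level was 242, 130, 106, 84.6 and 98.4. Irf9, which carries the interferon signal to DNA, had control means of 77.3, 32.5, 15.6, 36.1 and 86 CPM in the same order, and LPS means between 114 and 163.

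**Figure D4:**
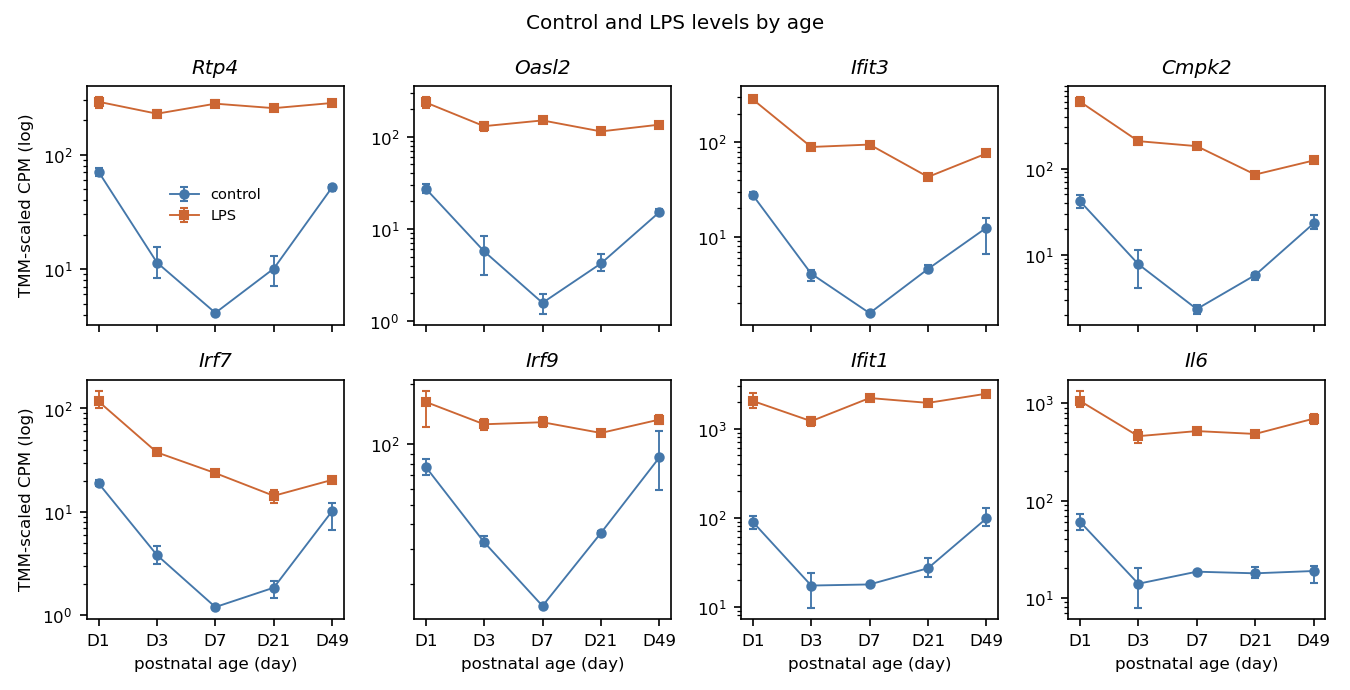
TMM-scaled CPM (y axis, log scale, scaled per panel) by postnatal age in control (circles) and LPS libraries (squares); points are means of 2 or 3 libraries and bars run from the lowest to the highest library. In Rtp4, Oasl2, Ifit3, Cmpk2, Irf7 and Irf9 the control level is lowest at D7, whereas Il6, shown for comparison, has D7 controls of 18.3 and 18.8 CPM, inside the range of the other ages.

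Cytokines did not share this pattern. Their median log2 difference was 2.39 at D7, against 2.32, 3.01, 3.13 and 3.16 at D1, D3, D21 and D49, edgeR called none of the 30 different between D7 and the other ages (4 at an unadjusted p under 0.05), and none had its D7 controls below all others. Ifnb1 rose by 4.58 at D7, and its difference from the other ages was 0.60 ± 0.88 (adjusted p = 1). In 3 of the 30 cytokines, Il1a, Il1b and Il19, both D7 LPS libraries were below all other LPS libraries. Over all tested genes the share was lower, at 1.14%. Il1b was at 1504 and 1764 CPM with LPS at D7 and at 1895 CPM or more in the LPS libraries of other ages. For Il1a the D7 LPS libraries reached 3163 CPM, just under the lowest of the others at 3195.

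Receptors for cytokines were called in both directions, with 6 rises and 4 falls in 35. Over all tested genes 5.15% rose and 4.47% fell. Cd40, the costimulatory receptor, went from 1.76 and 0.761 to 31.6 and 28.2 CPM (4.56 ± 0.59), Il15ra from 3.05 and 3.09 to 35.7 and 36.9 (3.56 ± 0.41) and Ccrl2, a chemerin-binding receptor, from 83.8 and 79.1 to 536 and 591. Il6ra fell from 21.6 and 18.7 to 3.49 and 4.58 CPM (-2.32 ± 0.38), and Tgfbr2, a receptor of the cytokine that maintains alveolar macrophages, from 225 and 216 to 75.6 and 66.3 (-1.64 ± 0.27). In costimulation, Slamf7 rose from 88.4 and 82.4 to 728 and 651 CPM (3.01 ± 0.26; adjusted p = 2.7e-07), and the inhibitory receptor Havcr2 (TIM-3) fell from 217 and 228 to 55 and 56.4. Of 21 class I and immunoproteasome genes 3 rose at D7 (Tap1, Tapbp and Nlrc5), with a median of 1.02, and 12 rose within the 14 libraries; the Tap1 call ended without any of the 4 libraries (adjusted p from 0.085 to 0.21).

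Regulators that limit the response were divided: 6 of 35 rose and 5 fell, where 5.15% of all tested genes rose and 4.47% fell. Il1rn, the secreted antagonist of IL-1, went from 1146 and 1119 to 6090 and 5428 CPM (2.35 ± 0.22; adjusted p = 7.4e-07). Tnfaip3 (A20), a ubiquitin-editing inhibitor of NF-kappa-B, went from 459 and 425 to 1880 and 1810 (2.06 ± 0.27). Without 1 library 3 or 4 rose and 0 to 2 fell, and within the 14 libraries 16 rose and 6 fell. Of 13 inflammasome genes 3 rose and 2 fell: Nlrp3 (199 and 222 to 619 and 776 CPM), Casp4 and Il1rn were higher, and Casp8 and Nlrp1b (23.5 and 22.9 to 4.63 and 4.53 CPM; -2.34 ± 0.44) were lower. Without 1 library 1 or 2 rose and 1 fell.

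Of 13 tested genes of nitric oxide, arginine, itaconate and tryptophan metabolism 4 rose and 0 fell. Prostaglandin and iron handling genes were called in both directions. Acod1, which makes itaconate, went from 524 and 512 to 4389 and 4322 CPM (3.07 ± 0.27; adjusted p = 3.1e-07), and Slc7a2, the carrier that brings in arginine, from 1975 and 1916 to 10696 and 9399 (2.37 ± 0.31). Nos2, the inducible nitric oxide synthase that uses arginine, rose from 0.413 and 0.304 to only 11.4 and 11.2 CPM (4.95 ± 0.65). Ptgs2 (COX-2) went from 61.7 and 64 to 1011 and 908 CPM (3.93 ± 0.37) and Ptges, which completes prostaglandin E2, from 124 and 105 to 467 and 425 (1.96 ± 0.31). Of the 19 prostaglandin and leukotriene genes 3 rose and 2 fell, the falls being the receptor Ptger4 (53.6 and 47.2 to 16.9 and 14 CPM), not called without LPS library 2, and the degrading enzyme Hpgd, not called without any 1 library. Of 16 iron handling genes 4 rose and 2 fell. Hamp, which encodes the iron hormone hepcidin, went from 2.94 and 3.35 to 72.7 and 61.5 CPM (4.41 ± 0.63), and the carriers Slc39a14 and Slc25a37 rose by 1.79 ± 0.27 and 1.48 ± 0.29. The transferrin receptor Tfrc fell from 426 and 453 to 125 and 110 CPM (-1.90 ± 0.39), a call that ended without LPS library 2, and Cp (ceruloplasmin), also a liver product, from 11.8 and 10.7 to 1.2 and 1.58 CPM, a call that ended without LPS library 1. Of 22 tested glycolysis and hypoxia genes 2 fell at D7, Pdk1 and Bnip3, of which Pdk1 was not called without LPS library 2 and Bnip3 without any 1 of the 4 libraries, and 5 rose and 5 fell within the 14 libraries. Of 31 respiratory chain genes none was called by edgeR, 1 had an unadjusted p under 0.05, DESeq2 called 0 higher and 0 lower, and 1 rose and 2 fell within the 14 libraries.

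Few lipid genes were called in either direction. Over all tested genes 5.15% rose and 4.47% fell. Soat1, which esterifies cholesterol for storage, fell from 779 and 783 to 194 and 184 CPM (-2.05 ± 0.27; adjusted p = 4.6e-05), and the desaturase Scd2 from 95.4 and 91.1 to 24.3 and 21.6 (-2.02 ± 0.28). Of 35 sterol and fatty acid synthesis genes 1 rose (Ch25h, cholesterol 25-hydroxylase, 62.6 and 59.5 to 157 and 140 CPM; not called without any 1 of the libraries) and 2 fell, a share close to that of all tested genes, with a median of -0.40; within the 14 libraries 3 rose and 15 fell. Of 36 genes of lipid uptake, efflux and storage 1 rose, the triglyceride synthesis gene Dgat2 (4.6 and 2.28 to 22.8 and 21.7 CPM; 2.69 ± 0.60), and 4 fell, and within the 14 libraries 2 rose and 10 fell; without 1 library 1 to 3 fell, and Dgat2 was not called without control library 2.

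Of 35 tested genes that mark alveolar macrophages 1 rose and 4 fell, with a median of -0.27. Over all tested genes 5.15% rose and 4.47% fell. Plet1 rose from 1068 and 1010 to 4113 and 4249 CPM (2.01 ± 0.29). Pparg was at 90.4 and 81.5 CPM in control and 66.1 and 55.8 with LPS (-0.50 ± 0.26; adjusted p = 0.34), and Marco, a scavenger receptor, at 319 and 409 against 662 and 1399 (1.50; adjusted p = 0.38, and 0.018 within the 14 libraries). Without 1 library 2 or 3 of the 4 falls passed.

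Phagocytic receptors fell more often than they rose: 10 of 42 fell, 3 rose, and within the 14 libraries 17 fell and 7 rose. In the main fit 4.47% of all tested genes fell and 5.15% rose. Cd300a, an inhibitory receptor for lipids of dying cells, fell from 77.2 and 82 to 8.52 and 10.8 CPM (-3.04 ± 0.41), and its relative Cd300lb from 24.1 and 27.9 to 4.69 and 4.17 (-2.55 ± 0.32). Mertk, which binds apoptotic cells through bridging proteins, fell from 153 and 146 to 68.4 and 61.1 (-1.21 ± 0.27). Itgav, the alpha-v integrin chain, rose from 161 and 154 to 644 and 551 (1.93 ± 0.31). Without control library 1 or 2 the falls numbered 7 and 5, and without LPS library 1 or 2 they numbered 4 and 2.

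Purine and lipid signalling genes moved in both directions. Cd38, which degrades NAD, rose from 4.08 and 5.53 to 44.7 and 37.5 CPM (3.10 ± 0.50), and the adenosine receptor Adora2b from 9.97 and 6.8 to 36.6 and 34.1 (2.08 ± 0.36). Entpd1 (CD39), which breaks down extracellular ATP, fell from 84.4 and 78.6 to 30.9 and 29.8 (-1.43 ± 0.24). Arrb1, a beta-arrestin that uncouples G protein-coupled receptors such as Cnr2, fell from 137 and 166 to 26.7 and 31.2 (-2.39 ± 0.42). Among proteases, the collagenase Mmp13 rose from 32.2 and 31.7 to 343 and 306 CPM (3.34 ± 0.41), and Mmp19 fell from 72.8 and 67.4 to 29.5 and 27.5. Of 27 apoptosis and survival genes 8 rose and 1 fell, with Bcl2a1d, Gadd45b and Mlkl among the rises. The Bcl2a1 copies are near identical and their split is uncertain. Without 1 library 4 to 6 of the 8 passed.

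Cell cycle genes made up the largest falling group among the lists. Of 53 tested, 23 fell and 3 rose, with a median log2 difference of -1.28, and within the 14 libraries 32 fell and 3 rose. Ccna2 (cyclin A2) fell from 84.1 and 103 to 18.2 and 15.2 CPM (-2.48 ± 0.36; adjusted p = 0.0001), and Kif23, a motor of cell division, from 38.7 and 31.1 to 5.21 and 4.88 (-2.79 ± 0.40). Ccne1 (cyclin E1), which acts before DNA synthesis, rose from 3.15 and 3.6 to 18.8 and 20.8 CPM (2.55 ± 0.41), and the checkpoint kinase Bub1b rose from 91 and 78.1 to 336 and 306. Mki67, the usual proliferation marker, stood at 817 and 874 CPM in control and 686 and 621 with LPS (-0.37; adjusted p = 0.67). Without 1 library 14 to 19 fell. The list's median was -0.59 at D1, -0.88 at D3, -0.78 at D21 and -0.60 at D49, and edgeR called none of its genes different between D7 and the other ages, with 0 at an unadjusted p under 0.05.

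Transcripts of liver and of salivary or lacrimal glands, which alveolar macrophages are not known to make, also differed between the D7 arms. The 16 liver markers summed to 433 and 321 CPM in control and 36.8 and 91.3 with LPS, and 7 of them fell, none rose. Alb (albumin) was at 290 and 233 CPM in control and 26.3 and 54.5 with LPS (-2.69 ± 0.63; adjusted p = 0.0083), a call that ended without LPS library 1 (-2.26, adjusted p = 0.14). Over the series the liver sum ranged from 21.3 to 456 CPM, and its mean in LPS libraries was above that in controls at D1 (161 against 26) and below it at D3 (217 against 252). All 8 tested gland genes rose: Mucl2, a gland mucin, from 5.37 and 4.16 to 192 and 206 CPM and Prol1 from 3.56 and 4.67 to 150 and 126. The gland sum was 16.2 and 16.4 CPM in control and 550 and 534 with LPS. At D1 and D3 the gland sum was also higher with LPS, with means of 1119 and 341 CPM against 8.61 and 3.46, but at D21 and D49 it was higher in control, 1675 and 1694 against 11.4 and 8.77. Their part in other results was not tested. Of the 33 genes in which D7 differed from other ages, Car6, Mucl2 and Scgb2b26 of the 19 are gland genes, whose response was negative at D21 and D49. Mucl2 rose by 5.38 at D7, by 10.25 at D1 and by 7.07 at D3, and had -7.52 at D21 and -7.74 at D49. Its difference was not called without D49 (2.12, adjusted p = 0.067). The 14 more negative ones are genes known from liver such as Apcs, Fgb, Alb, Gc, Tdo2 and Pzp together with Iigp1. Iigp1 had control means of 0.718, 7.74, 11.9, 6.61 and 0.652 CPM from D1 to D49 and Alb 9.2, 171, 262, 209 and 32.9. When D1 was left out of the other ages, 4 genes had a more negative D7 response.

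**Figure D5:**
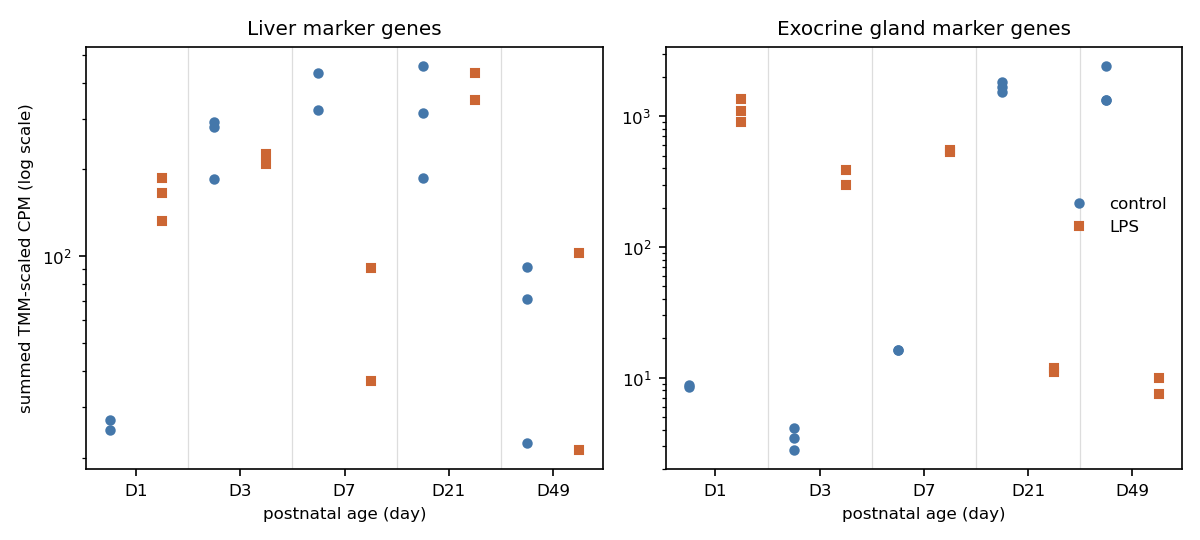
Summed TMM-scaled CPM (y axis, log scale) of 16 liver markers (left) and 11 gland markers (right) in each library by postnatal age, control as circles and LPS as squares. At D7 the liver sum is lower and the gland sum higher with LPS, and at D21 and D49 the gland sum has the opposite order.

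Markers of other cell types also differed between the arms in part. Neutrophil markers summed to 80 and 90.1 CPM in control and 77.2 and 73.6 with LPS, and 1 of 7 tested was called, Cxcr2, which fell from 35.8 and 38.5 to 7.04 and 7.83 CPM. Monocyte and interstitial macrophage markers summed to 303 and 303 CPM in control and 552 and 783 with LPS, of which Fn1 made up 295 and 294, and 518 and 752. Lung epithelial markers summed to 61.2 and 57.5 and to 74.3 and 77.6 CPM, with Hopx alone called (7.33 and 7.3 to 28.9 and 28.3). Dendritic cell markers summed to 8.37 and 6.54 CPM in control and 15 and 20.6 with LPS, and 1 of 3 tested rose, Zbtb46. Endothelial markers summed to 56.6 and 55.7 CPM in control and 26.1 and 29.7 with LPS, mostly Vwf (54.2 and 53.4; 19.8 and 23.7), with none of 3 called by edgeR. Skeletal muscle markers were at 5.22 and 28.5 CPM in control and 1.89 and 0.661 with LPS, with 1 of 7 tested called, Mylpf, which fell. The mean muscle sum was lower with LPS at each of the 5 ages, at 18.8 against 2.59 CPM at D1, 23 against 2.98 at D3, 16.9 against 1.27 at D7, 131 against 0.967 at D21 and 22.1 against 1.54 at D49. The part of these cells in other results was not tested.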

How the data were processed

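RNA-seq was analysed for 24 libraries in 10 groups (5 ages, with and without LPS), 4 of them from D7. The authors deposited whole-number counts per gene and an exonic length for each, listed as other values; the submitters' processing notes name STAR, DESeq2 and build GRCm39, with no versions or roles, and the counting tool is not given in the sources used here. Of 56691 genes 52073 had a symbol in GENCODE M21, and 324 tested genes had none. FPKM were computed from counts and length, and genes with an FPKM of at least 1 in 2 libraries were tested (11774). The main test was edgeR 4.0.16 (quasi-likelihood, TMM scaling, R 4.3.3) with 1 mean per group over all 24 libraries and Benjamini-Hochberg adjustment at 0.05; SE is the log2 fold change divided by the root of F. The same fit tested the D7 response minus the mean of the other 4. Alternatives used DESeq2 1.42.0 and limma 3.58.1 on log2(FPKM + 1) or log2(FPKM + 0.1). Levels within a gene are TMM-scaled CPM; levels between genes are FPKM. Promoter windows came from RefSeq on GRCm38.p6, and no gene coordinates from the counted build are given. The rule for named genes took the 15 largest rises and falls at an FPKM of at least 5, up to 4 members per list and direction, the 5 largest differences from other ages per direction, and 14 set genes. Others, such as Ifit3, Irf9, Inhba, Mertk, Cxcl1 and Ccl22, were chosen after their values were seen. Members and lists were chosen with earlier results of these data known. The floor of detection was 3 counts per library, which covers counting error only. The scripts were tested on simulated data.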

Additional observations from a re-analysis of the deposited data

Results flagged for a closer look

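In 33 genes the D7 response differed from the mean of the other 4 ages by the test of that difference (edgeR, log2 scale), and the 9 of them that the rule for named genes takes are given here. Rtp4 was above that mean by 2.71 ± 0.32, Ifit3b by 2.75 ± 0.44 and Oasl2 by 2.69 ± 0.39, all interferon-induced. The gland genes Scgb2b26 and Mucl2 were above it by 5.39 ± 0.79 and 4.87 ± 0.46, although both rose less at D7 (5.81 and 5.38) than at D1 (9.83 and 10.25) or D3 (7.81 and 7.07), since the mean holds negative responses at D21 (-7.18 and -7.52) and D49 (-8.78 and -7.74). Without D49 neither was called (2.32, adjusted p = 1, and 2.12, adjusted p = 0.067), and Scgb2b26 was not called without D21 (2.85, adjusted p = 0.4). The response was more negative in 4 liver genes, at -6.17 ± 1.02 in Apcs, -4.22 ± 0.65 in Fgb, -3.57 ± 0.70 in Alb and -3.52 in Gc. Their D1 responses were positive, at 4.39, 3.88, 3.21 and 3.21 in the same order. With D1 left out of the other ages, Apcs, Alb and Gc were not called. Apcs was near the floor of detection in the D7 LPS libraries (0 and 0.203 CPM), so the size of its difference is uncertain. The Rtp4 call held without each D7 library, while Alb and Gc were not called without any 1 of the 4. Groups of 2 or 3 libraries were too small to test single libraries as outliers.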

How the results depend on the processing

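No call among 177 named genes changed direction under the 15 alternatives run, but calls were lost. Among the fits that kept every D7 library, the most were lost with no filter on low values, 20 of the 177. With limma 13 (pseudocount 1) or 14 (0.1) were lost. Each fit without 1 D7 library, which leaves a single library in that arm, lost more named calls than any of these. The count of changed genes at D7 (1132, 606 higher and 526 lower) was 3073 (1419 and 1654) in D7 libraries alone, 3327 (1610 and 1717) in the 14 libraries within a GC deviation of 1, and 2081 (1041 and 1040) with a GC covariate. With 1 library left out it was 603 to 629 (337 to 434 higher, 186 to 266 lower), with a share of rises of 55.9% to 70.0% against 53.5%. With limma, 939 (pseudocount 1) or 880 (0.1) were lower and the share of rises was 36.7% or 37.4%; with no filter on low values it was 64.2%. Same-numbered control and LPS libraries had deviations that correlated by 0.6109 to 0.8312 in the D1 and D3 pairs, 0.2917 and 0.5578 in those of D49, 0.0733 and 0.1369 in those of D21 and 0.0975 in those of D7, so the numbers were not taken to pair libraries throughout; the replicate block gave 2239 genes (1086 and 1153), and the block with GC covariate 3413 (1566 and 1847). The cause of these shifts was not tested.

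Against the 33 genes that differed from other ages (19 higher and 14 lower), DESeq2 called 71 (29 and 42), no filter 117 (93 lower), the 14 libraries 53 (34 higher), the GC covariate 91 (37 and 54), and limma 68 (47 lower) or 50 (30 lower). The replicate block gave 53 (29 and 24), and with the GC covariate 264 (144 and 120). Leaving out 1 library gave 13 to 23 (5 to 11 higher, 3 to 12 lower). Leaving out an age was chosen after seeing the data: 8 were higher without D49 and 4 lower without D1. The set of 14 libraries holds only 1 library in each arm of D1 and D49, in D3 LPS and in D21 control. With 2 libraries per arm, small differences are not detectable.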
